A study of Mus musculus with 3 samples.

Results

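The mitochondrial ribosomal protein genes were taken as the gene rows whose symbol was Mrpl or Mrps, for a protein of the large or small mitochondrial ribosomal subunit, followed by a number and at most 1 letter a to c. This gave 77 of the 47593 gene rows, 48 named Mrpl and 29 named Mrps, all of them protein coding. RNA had been sequenced in 3 libraries of primary neurons from the hippocampus of wild-type (WT) mice, and all 3 belonged to a single group. That group was given fresh neuronal medium with the supplement B27 and penicillin-streptomycin for 24 h, in cultures kept in Neurobasal with 10% B27 and 1% GlutaMAX under 5% CO2 at 37 °C. The series' design also names neurons treated with apoE particles, which were not analysed here, so no treatments were compared. Nothing in the labels ties the 3 libraries to separate cultures or animals, and neither the age of the animals nor any pooling is given there, so the spread between libraries may be technical.

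Mitochondria keep a small genome of their own and translate its mRNAs, which encode core subunits of the respiratory chain, on a ribosome related to that of bacteria. The ribosomal RNAs of this mitoribosome come from the mitochondrial genome, whereas its proteins are encoded in the nucleus, made in the cytosol and imported. Some of the proteins have a bacterial counterpart, and the others were added during the evolution of mitochondria. Neurons draw on the respiratory chain for synaptic transmission, and inherited defects of mitoribosomal proteins in humans often affect the brain, heart or liver.

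The authors deposited 1 log2 value per gene and library, in a form in which differences between libraries are shrunken. Whole reads were recovered from these values, with totals of 18780572, 18683966 and 18885652 reads in replicates 1, 2 and 3, and a read for 22244 to 22321 genes. Every one of the 228 values of members with reads came within 0.0378 of a whole read. Levels are given as log2(CPM per kilobase of exon + 0.5), with CPM for counts per 1000000, as the mean of the deposited values over the 3 libraries, and the SD beside a level is that of recovered reads (n = 3). Read counts of different genes also reflect gene length, so genes are ordered by level per kilobase alone. All 5 neuronal markers were detected, from Rbfox3 (147 ± 7.22 CPM) to Map2 (1528 ± 50.8 CPM), as were all 4 astrocyte markers, led by Slc1a3 (980 ± 9.44 CPM), and all 4 oligodendrocyte lineage markers. None of 4 microglial and 3 endothelial markers reached 1 CPM in every library, with Cldn5 at 0 reads. In bulk RNA, the part that each cell type had in a member's level cannot be told apart, and neither can fewer cells and less RNA per cell.

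RNA of nearly all mitochondrial ribosomal protein genes was present. At 1 CPM or more in each library, 76 of 77 members were detected, against 29.4% of all gene rows and 59.1% of protein-coding genes. The members with reads had a mean of 152 to 1820 reads per library. Their summed reads were 49631, 48340 and 48056 in replicates 1, 2 and 3. Their share of the summed expression was 0.259% ± 0.0016 from the deposited values and 0.259% ± 0.0049 from recovered reads (SD, n = 3). Counted per 1000 reads of mitochondrially encoded mRNA, member reads numbered 40.6, 34.1 and 36.4 in replicates 1, 2 and 3.

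The gene without a read was Mrpl53, whose protein sits beside the stalk of the large subunit. It lies on chromosome 6 (chr6:83109040-83109939 in GRCm38, plus strand), and 88.0% of its exon bases were shared with exons of the annotated genes Gm42688 on the same strand and Ccdc142os on the opposite strand. With 0 reads in replicates 1, 2 and 3, its level lay below 3 reads, or about 0.16 CPM, in each library, a limit that covers counting error only. The neighbouring gene Ccdc142 had 201, 170 and 168 reads, and the antisense gene Ccdc142os had 3, 2 and 2. The part of the shared exons in the absence of reads was not tested.

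The median level per kilobase of the 77 members was 3.79 ± 0.04 on the log2 scale, against 2.84 for 12791 detected protein-coding genes. The median member with reads stood at percentile 70.0 of those genes, and 16 members with reads lay below their median. Over the 76 members with reads, the SD of the log2 level per kilobase was 0.94, against 1.16 for 37 nuclear subunits of respiratory complex I, 1.80 for 79 cytosolic ribosomal protein genes, and 1.14 for genes with reads in the same range. The order of the first 2 turned with the length of each gene's principal transcript, which gave 1.05 for the members, 0.79 for complex I and 1.84 for the cytosolic ribosome. The 79 cytosolic genes include Rpl39l, Rpl3l and Rpl24, with 1, 29 and 36 reads over all libraries. Their levels were −0.94, −0.30 and 0.16, while the others lay between 5.00 for Rps27l and 10.08 for Rplp1. The part of these low genes in the SD of 1.80 was not tested. Levels below are per kilobase of all exons unless the principal transcript is named.

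**Figure D1:**
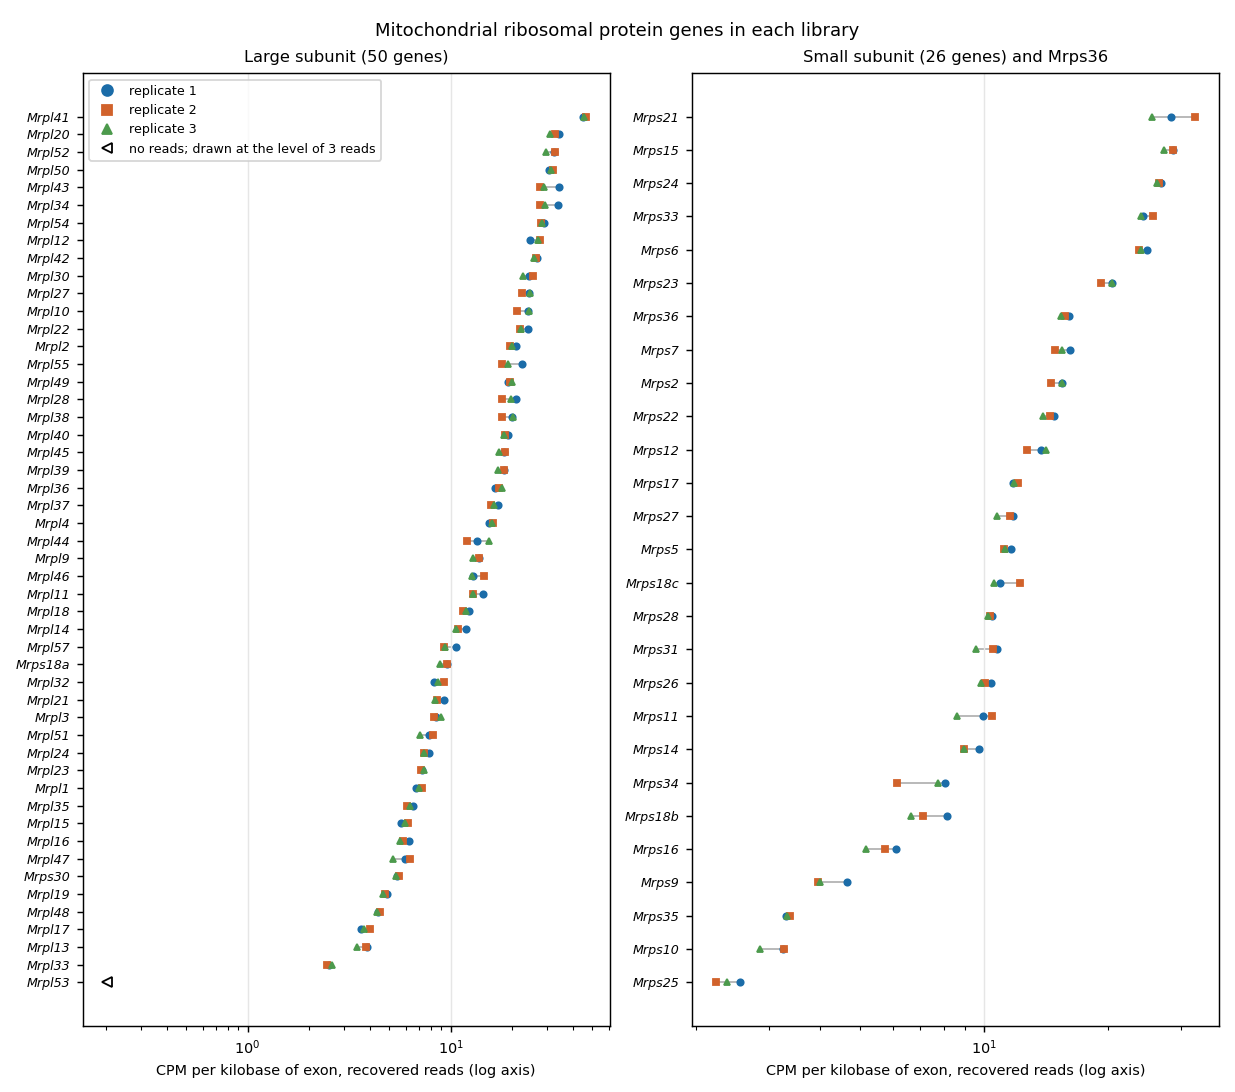
CPM per kilobase of exon (log axis) of each mitochondrial ribosomal protein gene in replicates 1, 2 and 3, with the large subunit on the left and the small subunit with Mrps36 on the right. Symbols of 1 gene lie close together, with a median ratio of highest to lowest library of 1.08, and Mrpl53, without reads, is drawn at the level of 3 reads.

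By known structure, 50 members belong to the large subunit, among them Mrps30 and Mrps18a in spite of their symbols, and 26 to the small subunit. Mrps36 was counted with neither, since its protein is now known as a subunit of the ketoglutarate dehydrogenase complex, and had 385, 375 and 369 reads and a level of 4.02. The small subunit had a median level per kilobase of 3.56 and the large subunit 3.82, a difference of small minus large of −0.26 ± 0.01 from the deposited values and −0.34 ± 0.05 from recovered reads (SD, n = 3). It had the same sign in all 3 libraries, which measure the same genes. Over genes with reads, the SD of the level was 0.93 in the small and 0.95 in the large subunit. Genes with a bacterial counterpart, 45 in number, had a median of 3.57, and the 31 mitochondria-specific genes one of 3.89, a difference of −0.33 ± 0.01 by deposited values and −0.36 ± 0.07 by recovered reads (SD, n = 3). With the length of each gene's principal transcript in place of all its exons, this difference was −0.07. It also had opposite signs in the 2 subunits, with medians of 3.60 for bacterial-type and 3.42 for mitochondria-specific genes of the small subunit, against 3.54 for bacterial-type and 4.21 for mitochondria-specific genes of the large subunit. Small subunit genes took 32.5%, 32.3% and 32.1% of the subunit reads in replicates 1, 2 and 3. The exact binomial 95% intervals of these shares ran from 31.6% to 32.9% in all and overlapped between libraries.

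In the large subunit, the proteins of the stalks, which recruit translation factors and move transfer RNAs out, had a median level of 4.18 over 6 genes. Mrpl12, the mitochondrial form of the stalk protein L7/L12, had 711, 785 and 776 reads in replicates 1, 2 and 3. Mrpl10, which anchors it, had 772, 681 and 786 reads. Mrpl12 was lowest in replicate 1 and Mrpl10 in replicate 2. Neither differed between libraries beyond counting error in the chi-square test given below (adjusted p = 0.29 and 0.18). The level of Mrpl12 was 4.75 and that of Mrpl10 4.57, a difference of 0.18 with an SD of 0.16 in recovered reads. Mrpl54 was the highest of the stalk genes at 4.85, Mrpl11, at the stalk base, had 3.80, and Mrpl1, the protein of the opposite stalk, the lowest with reads at 2.90.

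Around the peptidyl transferase centre, where amino acids are joined, Mrpl2, Mrpl3, Mrpl16 and Mrpl27 had a median level of 3.78 and lay between 2.68 for Mrpl16 and 4.61 for Mrpl27, with Mrpl3 at 3.18 and Mrpl2 at 4.37. The 9 genes of the exit tunnel, through which the new protein leaves, had a median of 3.82. Mrpl22 was highest among them at 4.54 and Mrpl45, which docks the ribosome at the inner membrane, had 4.21. Of the others, Mrpl39 had 4.21, Mrpl4 4.03, Mrpl44 3.82, Mrpl24 3.01, Mrpl23 2.96 and Mrpl47 2.66. Mrpl17 was the lowest, at 2.10. By principal transcript Mrpl23 was highest, at 5.69, followed by Mrpl4 (5.04) and Mrpl22 (4.98). The central protuberance, which holds the mitochondria-specific proteins Mrpl38, Mrpl40, Mrpl46 and Mrpl48 beside Mrpl18, had a median of 3.80, from 2.29 for Mrpl48 to 4.32 for Mrpl38. Between these lay Mrpl18 (3.63), Mrpl46 (3.80) and Mrpl40 (4.26).

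The remaining 14 large subunit genes with a bacterial counterpart had a median of 3.38. Mrpl30 (4.63), Mrpl28 (4.33), Mrpl36 (4.15), Mrpl9 (3.81) and Mrpl14 (3.54) lay in its upper part, and Mrpl21 (3.21), Mrpl32 (3.21), Mrpl35 (2.77) and Mrpl15 (2.69) in its lower part. The remaining 12 mitochondria-specific genes had a median of 4.34. Among them were Mrpl55 (4.35), Mrpl49 (4.33), Mrpl37 (4.08), Mrpl57 (3.36), Mrps18a (3.30) and Mrpl51 (3.03).

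The order at the top of the large subunit depended on the length used. Per kilobase of all exons, Mrpl41, a mitochondria-specific protein, had the highest level of the members. It had 751, 768 and 760 reads in replicates 1, 2 and 3 and a level of 5.53 ± 0.02. Next came Mrpl20 (1069, 1012 and 968 reads), whose bacterial counterpart acts early in assembly, with a level of 5.05 ± 0.07. Mrpl52 followed with 671, 674 and 617 reads and a level of 5.00 ± 0.08. Mrpl20 and Mrpl52 lay no further apart than their SDs, so their order is uncertain. By principal transcript Mrpl41 had 5.72 and rank 7, below Mrpl20 at 6.16 and Mrpl52 at 6.39. Mrpl50 (1206, 1256 and 1242 reads) reached 4.98, Mrpl43 (972, 781 and 833 reads) 4.94 and Mrpl34 (385, 312 and 334 reads) 4.94. The gene with most reads of all members was Mrpl42, with 1852, 1823 and 1785, and over its 3682 exon bases its level of 4.75 ranked 11 among the 77. Over the 661 bases of its principal transcript its level was 7.20, the highest of the members, followed by Mrpl30 at 7.06.

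At the other end, Mrpl33 had 345, 338 and 361 reads and the lowest level of a large subunit gene with reads, 1.60 ± 0.03. Above it stood Mrpl13 (577, 570 and 521 reads) at 2.08 and Mrpl17 (517, 569 and 539 reads) at 2.10. These values rest on exon sets of 7326, 7936 and 7605 bases. With the length of the principal transcript, Mrpl33 ranked 15 and Mrpl13 ranked 32 of 77, while Mrpl17 stayed low at rank 75. Mrpl48 (673, 682 and 665 reads) followed at 2.29, Mrpl19 (496, 483 and 476 reads) at 2.39 and Mrps30 (678, 692 and 677 reads) at 2.57. Their ranks by principal transcript were 69 for Mrpl48, 74 for Mrpl19 and 62 for Mrps30, so these remained in the lower part on both lengths.

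In the small subunit, 3 genes encode proteins at the decoding centre and the mRNA entry site, where codons are read. Mrps24 had 741, 730 and 727 reads and a level of 4.76 ± 0.02, Mrps12, known in bacteria for its part in decoding accuracy, 269, 247 and 278 reads and 3.81 ± 0.08, and Mrps5 1434, 1374 and 1397 reads and 3.57 ± 0.03. The 3 libraries were close for each of them. The other 13 genes with a bacterial counterpart had a median of 3.55 and the 10 mitochondria-specific genes one of 3.42. Of those with a counterpart, Mrps2 had a level of 3.97, with Mrps7 just above it, Mrps17 3.63, Mrps18c 3.55, Mrps11 3.35 and Mrps14 3.28. Of the mitochondria-specific genes, Mrps22 had 3.89, Mrps27 3.57, Mrps31 3.43, Mrps26 3.40, and Mrps34 and Mrps18b 2.96 each.

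Per kilobase of all exons, Mrps21 was highest of the small subunit, with 395, 450 and 357 reads and a level of 4.88 ± 0.17, followed by Mrps15 (913, 909 and 875 reads) at 4.85 ± 0.04. The spread of Mrps21 exceeded the gap between them. By principal transcript Mrps17 was highest of the small subunit at 6.54, before Mrps21 at 5.73. Mrps33 (759, 800 and 758 reads) had 4.65, Mrps6 (717, 680 and 695 reads) 4.63 and Mrps23 (598, 560 and 601 reads) 4.36. Lowest was Mrps25, with 316, 275 and 295 reads and a level of 1.53 ± 0.08. Of its exon bases, 69.8% were shared with Nr2c2 on the opposite strand. Above Mrps25 came Mrps10 (493, 492 and 436 reads) at 1.86, Mrps35 (534, 545 and 541 reads) at 1.94, Mrps9 (502, 426 and 434 reads) at 2.23 and Mrps16 (330, 309 and 281 reads) at 2.63. Mrps10 moved to rank 31 and Mrps9 to rank 45 by principal transcript, while Mrps25, Mrps35 and Mrps16 stayed at ranks 76, 72 and 73. The fewest reads of a detected member belonged to Mrps28, with 154, 151 and 151 over 783 exon bases, and a level of 3.44 ± 0.02.

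The bacterial protein S18 has 3 mitochondrial relatives, which take different places in the mitoribosome. Mrps18c, the form in the bacterial position, had 221, 245 and 215 reads, Mrps18b, elsewhere in the small subunit, 318, 278 and 262, and Mrps18a, in the large subunit, 668, 660 and 616. The level of Mrps18c was higher than that of Mrps18b by 0.59 (SD 0.17) and than that of Mrps18a by 0.25 (SD 0.08), and Mrps18a was higher than Mrps18b by 0.34 (SD 0.09), with SDs of recovered reads over the 3 libraries. Each of the 3 ratios had the same sign in 3 of 3 libraries, but the two-sided exact sign-flip permutation test gave p = 0.25, the smallest it allows with 3 libraries, and 0.25 after Benjamini-Hochberg adjustment over 8 pairs. The order of the forms depended on length: without length scaling the ratio of Mrps18c was −0.32 to Mrps18b and −1.48 to Mrps18a, and by principal transcript it was −1.02 to Mrps18a.

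A subset of 15 members, in which human variants are known to cause mitochondrial disease, was detected throughout, with a median level of 3.82, close to that of all members. It reached from 1.53 for Mrps25 to 4.98 for Mrpl50. Mrps22, from this subset, had 1105, 1077 and 1046 reads and a level of 3.89, and Mrps34 had 312, 237 and 302 reads and 2.96.

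Further mitoribosome proteins whose genes carry other names lay in the same range as the members. Aurkaip1 and Chchd1 of the small subunit had levels of 5.10 and 5.00, Dap3, a small subunit protein that binds GTP, 3.97, Ptcd3 2.91 and Gadd45gip1, of the large subunit, 2.46. Ict1, the older name under which the files list Mrpl58, a large subunit protein with peptide release activity, had 524, 565 and 541 reads and a level of 3.20.

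Genes that assemble or serve the mitoribosome had lower median levels per kilobase than its proteins. The median was 2.54 for 24 genes of assembly and ribosomal RNA modification and 2.54 for 15 mitochondrial translation factors. For 17 mitochondrial aminoacyl-tRNA synthetases, which charge transfer RNAs, it was 1.86, and for 8 genes of mitochondrial genome copying and transcription 2.41. All of these genes were detected, with the RNA-binding protein genes Ngrn (5.43) and Grsf1 (4.58) and the ribosome-binding factor Rbfa (4.47) highest in assembly. Among translation factors Tufm, the elongation factor that delivers transfer RNAs, led at 4.61, before the membrane insertase Oxa1l (4.08) and the elongation factor Gfm1 (3.29). Rars2 (3.24), Yars2 (3.04) and Hars2 (2.43) were the highest synthetases.

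Between related factors, Gfm1, which moves the ribosome along the mRNA, was higher per kilobase than Gfm2, which acts in ribosome recycling, by 2.02 (SD 0.13), but by 0.60 with the length of the principal transcript and 1.02 with annotated coding length. Mterf3 was higher than Mterf4 by 0.92 (SD 0.03). The release factor Mtrf1l differed from Mtrf1 by −0.16 (SD 0.16), no more than the spread, and the initiation factor Mtif3 from Mtif2 by −0.69 (SD 0.06). The last 2 differences changed sign with annotated coding length, to 0.47 and 1.01. Each of these ratios had p = 0.25 in the same exact permutation test.

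Complex I and the cytosolic ribosome, the other large assemblies compared, had higher median levels. Nuclear complex I subunits had a median level of 5.42, led by Ndufc2 (7.57), Ndufa4 (7.06), since assigned to cytochrome c oxidase, and Ndufb9 (6.39). Cytosolic ribosomal proteins had a median of 7.04, led by Rplp1 (10.08), Rps15 (9.11) and Rplp0 (9.07). The mitochondrially encoded ribosomal RNAs had a median of 11.28 and the 13 mitochondrially encoded mRNAs one of 11.79, both above the members' 3.79. Among those mRNAs mt-Atp8 had the fewest counted reads, 119 in all, and a level of 3.44, below the member median. The gene listed next to it, mt-Atp6, had 71257 reads. The part of read assignment in this gap was not tested, so the value of mt-Atp8 may not give its RNA level.

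**Figure D2:**
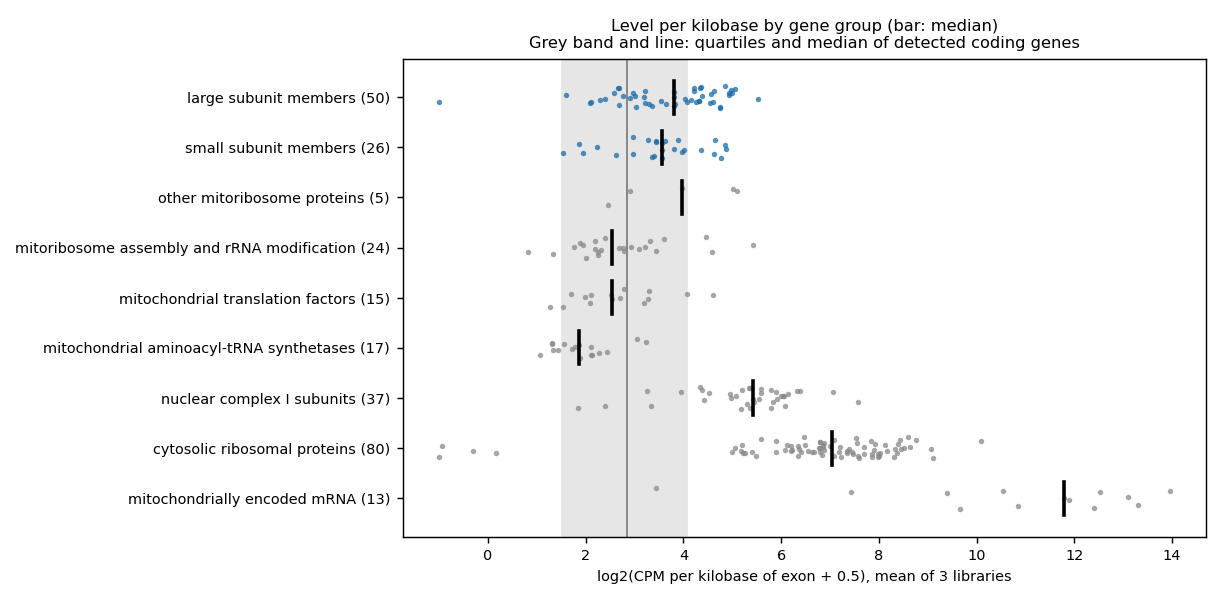
Level per kilobase, log2(CPM per kilobase of exon + 0.5) as the mean of 3 libraries, with 1 point per gene, the number of genes in parentheses and a black bar at each median. Large and small subunit members, in blue, have medians of 3.82 and 3.56, above those of assembly genes, translation factors and synthetases and below those of complex I subunits and cytosolic ribosomal proteins; the grey band and line give the quartiles and the median, 2.84, of detected protein-coding genes.

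Most members differed little between the 3 libraries. Over the 76 with reads, the ratio of the highest to the lowest library had a median of 1.08 and ran from 1.01 to 1.30, and the median coefficient of variation was 4.50%, against 4.48% for 7818 genes with reads in the same range. A Pearson chi-square test of recovered reads on 2 degrees of freedom, with Benjamini-Hochberg adjustment over the 15131 genes that averaged at least 10 reads, called 3 of 76 members at an adjusted p below 0.05. Over all genes tested it called 8.69%, and 5.77% of those with reads in the members' range. At an unadjusted p below 0.05 it called 14 members, against 20.6% of all genes tested and 18.3% in that range.

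The called members were Mrpl43, Mrpl44 and Mrps21. Mrpl43 had 972, 781 and 833 reads in replicates 1, 2 and 3, highest in replicate 1, with an adjusted p of 0.0014 in the chi-square test. It lies at chr19:45004829-45006442 (minus strand), and 33.4% of its exon bases were shared with Twnk on the opposite strand. Mrpl44, which holds a fold related to an RNA-cutting enzyme, had 416, 370 and 479 reads, lowest in replicate 2 (adjusted p = 0.023), at chr1:79776018-79781445 on the plus strand. Mrps21 had 395, 450 and 357 reads, highest in replicate 2 (adjusted p = 0.030), at chr3:95862634-95871519 on the minus strand. Their largest ratios between libraries were 1.22, 1.28 and 1.28. Without replicate 2, 0 members were called, against 2.18% of all genes tested. Without replicate 1 the test called 4 members, among them Mrpl44 and Mrps21, against 7.15% of all genes tested. Without replicate 3 it called 2, among them Mrpl43, against 4.91%. When the statistic was divided by the spread usual for genes of like abundance, 0 members were called, with adjusted p-values of 0.35 for Mrpl43, 0.64 for Mrpl44 and 0.65 for Mrps21, against 0.383% of all genes tested. At an unadjusted p below 0.05 this rule took 6 members, against 6.3% of all genes tested.

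Calls by the same test differed widely in number between lists. Of the assembly genes 0 of 24 were called, of the translation factors 0 of 15 and of the genome copying genes 0 of 8, whereas complex I had 10 of 37 and cytosolic ribosomal proteins 50 of 77. All 13 mitochondrially encoded mRNAs were called. Beyond the spread usual for genes of like abundance, 1 of 37 complex I genes, 2 of 77 cytosolic ribosomal proteins, 1 of 17 synthetases and 12 of the 13 mitochondrially encoded mRNAs were called. The sets with more calls also had more reads per gene, which lowers the counting error, and the part of read depth in these counts was not tested. Of the synthetases, Sars2, with 162, 107 and 188 reads, was called by both rules of the chi-square test (adjusted p = 0.00078 and 0.039). Of the other mitoribosome proteins, Gadd45gip1, with 293, 207 and 203, was called beyond counting error only.

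The members' median differed slightly between libraries. Against the other 2 libraries, the median member was higher by 0.036 in replicate 1 and by 0.012 in replicate 2, and differed by −0.038 in replicate 3 (log2, recovered reads), whereas the median of all genes tested was under 0.001 in each. Of 76 members, 54 were above the other 2 libraries in replicate 1, 41 in replicate 2 and 23 in replicate 3, against 50.1%, 50.2% and 50.2% of all genes tested. In the deposited, shrunken values the medians were 0.0086, 0.0013 and −0.0070. Both subunits had the same order, with 0.045, 0.010 and −0.051 for the small and 0.035, 0.011 and −0.034 for the large subunit.

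Complex I genes had medians of 0.070, −0.001 and −0.051 in replicates 1, 2 and 3, and cytosolic ribosomal proteins 0.054, 0.037 and −0.073, so all 3 sets were highest in replicate 1 and lowest in replicate 3. The mitochondrially encoded mRNAs ran otherwise, with −0.309, 0.243 and −0.001. Their share of reads was 6.51%, 7.58% and 6.99% in replicates 1, 2 and 3. With factors fitted in bins of GC content and length, the members' medians were 0.028, 0.010 and −0.025, the same order at a smaller size. The part of read depth and of the mitochondrially encoded share in these shifts was not tested.

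**Figure D3:**
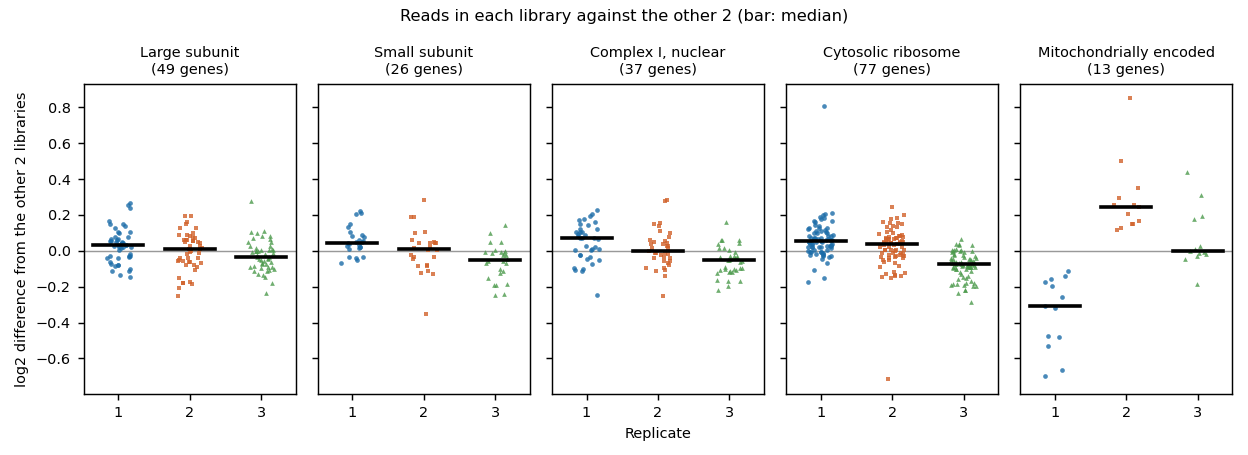
Log2 difference of each gene's scaled recovered reads in 1 replicate from the mean of the other 2, by gene set, with 1 point per gene and a bar at the median. The medians of both subunits lie within 0.06 of 0, positive in replicate 1 and negative in replicate 3, while mitochondrially encoded mRNAs lie at −0.309 in replicate 1 and 0.243 in replicate 2.

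The members were spread over 17 chromosomes, with 10 on chromosome 11, 8 on chromosome 17, 7 on chromosome 6 and none on 12, 18, X or Y. Chromosome 11 also held 1625 of the 21661 protein-coding genes. Many members stood head to head with another gene. A protein-coding gene on the opposite strand began within 1000 bases of the start of 33 of 77 members (42.9%), against 10.9% of all and 15.6% of detected protein-coding genes. The share was 45.9% for complex I subunits, 35.3% for mitochondrial synthetases and 18.8% for cytosolic ribosomal proteins. Among the large subunit genes 25 of 50 had such a neighbour, and among the small subunit genes 8 of 26.

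In 21 of the 33 the starts lay within 200 bases, and in 15 the annotated gene spans, introns included, overlapped at their 5′ ends. Of the neighbours, 29 had a mean of 1 CPM or more, and 23 were lower per kilobase than their member and 10 higher. Most members also lay above the median of detected protein-coding genes, with 16 of 76 below it. The same count for unrelated genes was not made, so it is not a result about these pairs. Several neighbours also act in mitochondria or in ribosomes. These were picked by hand from the neighbours of the 33, and their share was not compared with that among other genes. Mrps11 and Mrpl46, a small and a large subunit gene on chromosome 7, face each other. Mrps12 faces Sars2, the mitochondrial seryl-tRNA synthetase, and Mrpl43 faces Twnk, the helicase of mitochondrial DNA. Mrpl36 and Mrpl47 face the complex I genes Ndufs6 and Ndufb5, Mrps27 faces Ptcd2, a mitochondrial RNA-binding protein, and Mrpl49 faces Fau, which encodes a cytosolic ribosomal protein.

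Levels within several of these pairs were far apart. Mrps11 had 405, 425 and 353 reads and Mrpl46 344, 385 and 339, both highest in replicate 2 and lowest in replicate 3, with levels of 3.35 and 3.80. Mrps12 was higher than Sars2 by 2.26 and Mrpl43 higher than Twnk, listed in the files as Peo1, by 2.56. Both Mrps12 (269, 247 and 278 reads) and Sars2 (162, 107 and 188 reads) were lowest in replicate 2 and highest in replicate 3. Mrpl43 and Twnk (368, 321 and 375 reads) were also both lowest in replicate 2. Mrpl43 was highest in replicate 1 and Twnk in replicate 3, though replicates 1 and 3 of Twnk were close. Mrpl36 (359, 377 and 392 reads) was lower than Ndufs6 (670, 695 and 682 reads), with a log2 difference of −1.21, and Mrpl49 (673, 689 and 715 reads) lower than Fau, with one of −2.97. Mrpl36 and Mrpl49 were highest in replicate 3, Ndufs6 in replicate 2 and Fau (2954, 2789 and 2787 reads) in replicate 1. Shared order of libraries was not counted over the 33 members with a neighbour. Without stated strand-specific counting, reads from overlapping exons of such pairs cannot be told apart.

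**Figure D4:**
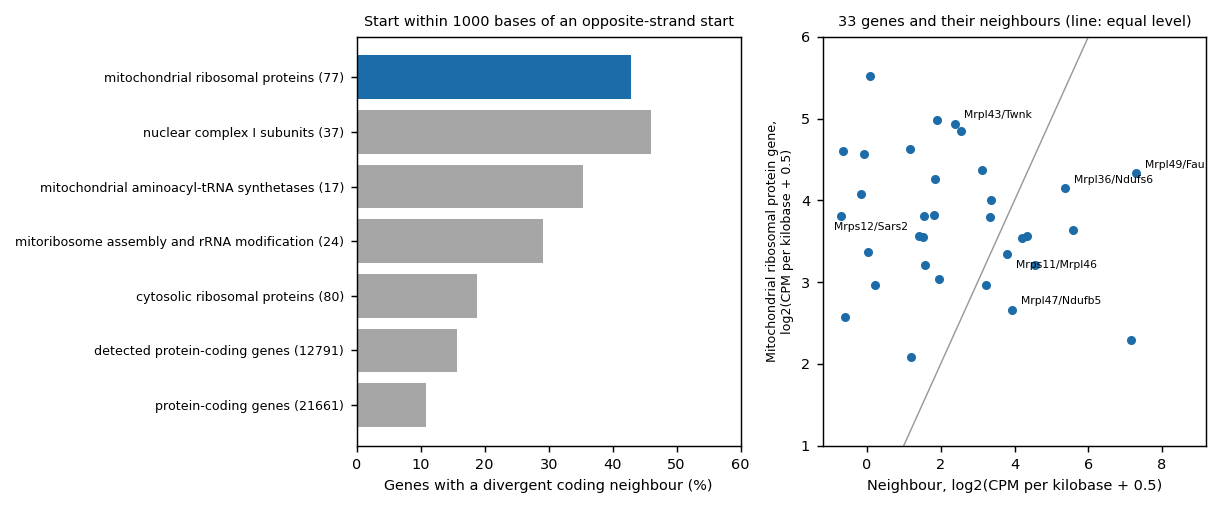
Left, percent of genes in each set with a protein-coding gene starting on the opposite strand within 1000 bases, with the number of genes in parentheses. Right, level per kilobase, log2(CPM per kilobase + 0.5), of each of the 33 members against its neighbour, where the 23 points left of the line of equal level have the lower neighbour; Mrps11 and Mrpl46 appear once each as member.

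The start regions of the facing genes Mrps11 and Mrpl46 are given to show how close their RefSeq starts lie. These starts, at 78783131 and 78783089 on chromosome 7, are 42 bases apart, and the windows share 141 bases read on opposite strands. By GENCODE M21, used for the neighbours above, the starts lie 412 bases apart and the gene spans overlap. The start regions of Mrps12, Mrpl43 and Mrpl53 show 3 promoters with the ETS word CCGGAAG, next to a synthetase, a helicase and in the member without reads. That of Mrpl42 shows the promoter of the member with most reads. Each runs from 250 bases before to 50 after the RefSeq start, 5′ to 3′ on the gene's strand (GRCm38.p6). Capitals mark any of the 5 words searched, on either strand. The windows are chr7:78782881-78783180 (plus strand), chr7:78783040-78783339 (minus), chr7:28741772-28742071 (minus), chr19:45006393-45006692 (minus), chr6:83108858-83109157 (plus) and chr10:95501900-95502199 (minus).
Mrps11: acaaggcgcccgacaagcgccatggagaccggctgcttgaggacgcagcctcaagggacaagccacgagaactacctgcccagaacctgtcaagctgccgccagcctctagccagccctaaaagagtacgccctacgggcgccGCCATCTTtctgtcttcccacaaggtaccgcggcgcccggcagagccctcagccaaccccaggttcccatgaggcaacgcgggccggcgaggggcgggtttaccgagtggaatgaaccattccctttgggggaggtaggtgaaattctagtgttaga
Mrpl46: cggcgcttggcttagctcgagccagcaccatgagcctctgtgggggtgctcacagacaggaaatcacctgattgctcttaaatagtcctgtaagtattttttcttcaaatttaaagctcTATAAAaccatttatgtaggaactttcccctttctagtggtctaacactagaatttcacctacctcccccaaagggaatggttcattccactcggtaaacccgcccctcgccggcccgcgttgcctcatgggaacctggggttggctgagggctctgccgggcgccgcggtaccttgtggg
Mrps12: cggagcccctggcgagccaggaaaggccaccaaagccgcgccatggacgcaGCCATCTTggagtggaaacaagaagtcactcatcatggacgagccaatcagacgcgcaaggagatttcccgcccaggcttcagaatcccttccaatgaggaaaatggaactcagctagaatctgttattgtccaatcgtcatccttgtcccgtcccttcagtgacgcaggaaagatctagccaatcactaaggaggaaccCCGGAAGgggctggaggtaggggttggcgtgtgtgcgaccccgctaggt
Mrpl43: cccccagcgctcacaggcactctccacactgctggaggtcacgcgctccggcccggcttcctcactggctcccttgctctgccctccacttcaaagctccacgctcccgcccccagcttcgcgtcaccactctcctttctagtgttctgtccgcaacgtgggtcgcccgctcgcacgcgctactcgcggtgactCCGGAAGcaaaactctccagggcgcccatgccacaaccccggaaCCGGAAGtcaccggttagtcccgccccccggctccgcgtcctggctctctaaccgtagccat
Mrpl53: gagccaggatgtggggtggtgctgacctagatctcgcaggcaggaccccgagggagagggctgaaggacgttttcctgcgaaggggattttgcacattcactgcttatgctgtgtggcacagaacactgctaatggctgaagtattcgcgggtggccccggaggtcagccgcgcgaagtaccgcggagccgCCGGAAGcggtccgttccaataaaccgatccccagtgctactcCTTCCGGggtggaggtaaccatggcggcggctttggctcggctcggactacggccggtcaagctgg
Mrpl42: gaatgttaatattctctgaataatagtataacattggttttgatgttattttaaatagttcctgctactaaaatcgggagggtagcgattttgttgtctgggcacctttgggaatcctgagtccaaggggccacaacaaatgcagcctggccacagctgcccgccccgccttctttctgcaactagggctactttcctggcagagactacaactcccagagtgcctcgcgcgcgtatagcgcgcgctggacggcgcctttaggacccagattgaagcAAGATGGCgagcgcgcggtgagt
In capitals, Mrps11 and Mrpl42 hold the YY1 word, Mrpl46 holds the TATA word, Mrps12 the YY1 and ETS words, and Mrpl43 and Mrpl53 the ETS word at 2 places each. The YY1 word of Mrps11 and Mrps12 and 1 of the ETS words of Mrpl53 lie on the opposite strand. Such words are short, and a match is a description of the letters, not a site.

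The RefSeq table held promoters for 68 of the 77 members and for 27025 genes in all. Searched on both strands, the ETS word CCGGAAG, named for the ETS family that includes the mitochondrial gene regulator GABP, stood in 25 members (36.8%), against 19.4% of detected protein-coding genes and 9.93% of all genes in the table. In cytosolic ribosomal proteins it stood in 41.7% and in complex I subunits in 12.1%. The YY1 word AAGATGGC stood in 12 members (17.6%), against 5.13% of detected protein-coding genes and 3.19% of all. The palindromic NRF1 word, for a regulator of nuclear genes of mitochondria, stood in 3 members (4.41%), against 2.32% and 1.07%. The ERR word AAGGTCA stood in 4 members (5.88%), against 3.52% and 5.38%, and the TATA word TATAAA in 5 (7.35%), against 8.24% and 15.7%. None of these words is contained in another, though the ETS and YY1 words can share bases where they adjoin.

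At least 1 of the ETS, YY1 and NRF1 words stood in 36 members (52.9%), against 2529 of 10098 detected protein-coding genes and 13.4% of all genes in the table. Members with and without a head-to-head neighbour held the ETS word at shares of 36.7% and 36.8%, and detected protein-coding genes with such a neighbour at 32.2%. For the YY1 word these shares were 26.7% and 10.5% of members and 8.32% of detected protein-coding genes with a neighbour. Of the members called between libraries, Mrpl43 and Mrps21 held the ETS word and Mrpl44 none of the 5, as did 27 members in all.

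Exons of 32 of the 77 members overlapped those of another gene, in 27 cases on the opposite strand and in 8 on the same strand. The share, 41.6%, compares with 36.5% of detected and 29.4% of all protein-coding genes. Overlap reached 50% of exon bases in Mrpl53, Mrps34 and Mrps25, with 77.8% in Mrps34, shared with Nme3 and Mapk8ip3. Values of these genes are uncertain where the authors' counting could not assign reads. Processed pseudogenes took few reads in their own rows, with 42, 46 and 50 for Mrpl23-ps1, 6, 7 and 3 for Mrps36-ps1, and 1 in each library for Mrpl48-ps, against 661, 654 and 683 for Mrpl23 itself.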

How the data were processed

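RNA sequencing (BGI DNBSEQ, per the labels' protocols) covered 3 libraries of 1 group. Each deposited file held a log2 expression value for every gene row. FastQC, HISAT2, featureCounts and DESeq2, with the build GRCm38, are named in the submitters' processing notes; their versions, settings and roles, and strandedness, were not stated there. As in a regularized log, differences between libraries were shrunken, and no counts were given. Reads were recovered by inverting a penalised negative binomial model of 6 parameters, after which 99.9% of values lay within 0.1 of a whole read (20% by chance), and refitting gave the deposited value within 0.001 for 100% of genes. The members and lists were chosen with earlier results of these data known.

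CPM levels came from 2 raised to the deposited value, divided by exon length from GENCODE M21, with 0.5 added before the log2; 45906 rows matched, 610 by an older symbol, and 27 rows with names turned into dates were left unnamed. Exon length counts every annotated exon base once. Detection meant 1 CPM or more in each library. Variation between libraries used a Pearson chi-square statistic of recovered reads, with median-of-ratios size factors, alone and divided by a dispersion trend over abundance, both tested on simulated data; no package for count models was used, since the deposited values are not counts. Pair ratios used an exact sign-flip permutation test. Promoter words were searched in RefSeq windows. Genes named were the 6 highest and 6 lowest per kilobase of each subunit, pair members, members below 1 CPM and called members, and the 3 highest of each comparison list; calls of cytosolic ribosomal proteins and complex I subunits are given as counts, and genes with head-to-head neighbours, overlaps, most or fewest reads, or of a role group were named after their values were seen. Alternatives covered lengths, pseudocounts, scalings, filters and libraries left out. Reads carried no molecular identifiers, so intervals and floors cover counting error alone. Analyses used Python 3.11.15, numpy 2.4.6, scipy 1.17.1 and pandas 2.3.3.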

Additional observations from a re-analysis of the deposited data

How the results depend on the processing

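Of 136 alternative values, 28 moved and 8 reversed. Of the other 100, pair ratios kept their direction, whatever their size. Their side of the threshold was fixed in advance, since the pair test cannot go below 0.25. The remaining values stayed within the spread or, for counts, within 1.5 times. Sizes of pair ratios changed, for example to 0.60 for Gfm1 over Gfm2 and 1.44 for Mrps18a over Mrps18b by principal transcript. The share was 0.281% without mitochondrially encoded genes in the sum. The median level was 4.19 with a pseudocount of 5, 4.94 without length scaling, 5.74 with annotated coding length, 4.42 by principal transcript and 3.71 in recovered reads. In the same order, the small minus large subunit difference was −0.19, −0.12, −0.32, −0.24 and −0.34, and −0.16 between means and −0.44 with subunits taken from symbols. The bacterial-type minus mitochondria-specific difference was −0.24, −0.35, −0.079, −0.069 and −0.36, and −0.10 between means. Without length scaling, Mrps18c over Mrps18b was −0.32, Mrps18c over Mrps18a −1.48 and Mtrf1l over Mtrf1 0.23. With annotated coding length, Mrps18c over Mrps18a was −1.05, Mtrf1l over Mtrf1 0.47 and Mtif3 over Mtif2 1.01, and by principal transcript Mrps18c over Mrps18a was −1.02 and Mtif3 over Mtif2 0.72. In these reversals the length is the only thing changed.

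Members called beyond counting error numbered 5 with total reads as size factors, Mrpl55 and Mrps34 being added, 4 with a mean of 50 reads or more, 2 without that filter, and 0 to 4 with 1 replicate left out. Over all genes tested, the same settings called 8.82%, 11.2%, 4.34%, and 2.18% to 7.15%. Beyond the dispersion trend, 0 members were called under every alternative run, against at most 0.470% of all genes tested. Median shifts in replicates 1, 2 and 3 were 0.036, 0.012 and −0.038 in recovered reads and 0.028, 0.010 and −0.025 with bins of GC content and length. The TATA word stood in 1 member from 100 bases before the start. The cause of moves not tied to length was not tested.

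The principal transcript and annotated coding lengths were chosen after seeing the data, the latter in place of coding length from a protein table, which was not used here. No paired analysis was possible because the 3 libraries form a single group. With 3 libraries, the pair test cannot go below 0.25.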
